A study of Mus musculus with 8 samples.

Results

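The early effect of MPTP on the mouse retina was read from 4 of the 8 arrays of the series, the 2 arrays of MPTP-treated retinas and the 2 of saline-treated retinas taken after 1 week (day 7). The arrays were chosen by their titles alone. All mice were male C57BL/6, 6 weeks old at the start, with 6 mice per group, and each array carried labelled cDNA from the RNA of 4 pooled retinas. The same design was repeated at 4 weeks (day 28), and those 4 arrays serve here for the estimate of the spread and for a test of whether the effects at both times differed. Saline or MPTP was injected, the labels state neither dose nor number of injections, and they do not say whether pools within 1 group were drawn from different mice, so p-values measure only the spread between these arrays (n = 2 per group throughout). In pooled tissue, fewer cells of a type and less RNA per cell cannot be told apart.

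MPTP is a lipophilic neurotoxin that crosses into the brain and the retina. Monoamine oxidase B converts it to MPP+, which enters dopamine neurons through the dopamine transporter and blocks complex I of the mitochondrial respiratory chain. In the retina dopamine is made by a sparse class of amacrine cells, which release it in daytime and adjust rod and cone circuits to bright light. Mueller glia and microglia are among the cells of the retina that react to injury.

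Values are log2 signal after RMA, 1 probe set per gene, for 19938 genes. The tissue was retina by its markers: the rod phototransduction genes had a median percentile of 99.7 among all genes by mean signal and the cone genes of 93.4, against 42.0 for muscle genes and 38.8 for genes of cornea and skin. The arrays differed among themselves in a way that did not follow treatment. On the first principal component, MPTP array 1 and saline array 2 scored 19.11 and 15.69, whereas MPTP array 2 and saline array 1 scored -0.39 and -8.74. Each group thus holds 1 array that stands apart on this component, and differences are also given within the 2 pairs that are alike on it, called like pairs here, MPTP array 1 minus saline array 2 and MPTP array 2 minus saline array 1. The first component holds 38.3% of the variance. On the second, with 17.7%, the MPTP arrays scored 1.93 and 13.89, against -2.40 and -4.82 for the saline arrays. MPTP array 2 had the most extreme score of all 8 arrays there, so MPTP array 2 and saline array 1 are not alike on the second component. Markers of neighbouring eye tissue differed as well. The 15 lens genes averaged 7.09 and 8.05 in the MPTP arrays, against 7.38 and 7.45 in the saline arrays, and MPTP array 2 was the highest of the 4 arrays for 13 of them while MPTP array 1 was the lowest for 12. Crygs, a lens crystallin, measured 7.05 and 9.71 in the MPTP arrays, against 7.60 and 7.96 in the saline arrays. Crybb1, another crystallin, measured 7.02 and 8.11 in the MPTP arrays, against 7.30 and 7.31 in the saline arrays. The 16 genes of the pigment epithelium averaged 7.30 and 7.79 in the MPTP arrays, against 7.51 and 7.43 in the saline arrays.

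No gene passed the threshold of 0.05 after adjustment over all genes (limma with Benjamini-Hochberg adjustment, smallest adjusted p = 0.275), so every difference named here is a measured size and not a call. At an unadjusted p under 0.05 stood 842 of 19938 genes (4.22%), 372 higher with MPTP (1.87%) and 470 lower (2.36%). After quantile normalization they were 501 higher and 489 lower, and after cyclic loess 525 higher and 497 lower. The 2 MPTP arrays did not overlap with the 2 saline arrays for 26.3% of genes, 12.5% higher and 13.8% lower. With 2 arrays per group, a lack of overlap in a single gene is thus common and says little by itself. The counts depended on the arrays. Without saline array 2, 1876 genes had an unadjusted p under 0.05, and without MPTP array 2 1400 did.

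The direction of small differences went with signal. Among the 9969 genes above the median signal, 233 genes at an unadjusted p under 0.05 were higher with MPTP and 118 lower, while among the dimmer 9969 genes 139 were higher and 352 lower. In the brightest 10% of genes, 1994 in all, 62.8% were above 0 with a median of 0.03, against 46.9% of all genes with a median of -0.0081. After quantile normalization of the deposited values the median of the brightest 10% was -0.0034, and after cyclic loess 0.0015. The olfactory receptor genes, which are not known for a role in the retina and of which 1027 were measured, lay at the dim end, and 72.3% of them were below 0 with a median of -0.08. They made up 19.4% of all lower genes at an unadjusted p under 0.05 and 5.15% of all genes. Medians of gene lists are read below against these figures. Between-array scaling (quantile, cyclic loess or centring on the median) turned the sign of the median of 11 of 39 lists, none of which was more than 0.0336 from 0. They were the lists of MHC class I, Parkinson disease, clock, cone and rod phototransduction, ganglion cell, immediate early, muscle, mitochondrial dynamics, photoreceptor structure and photoreceptor synapse genes.

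**Figure D1:**
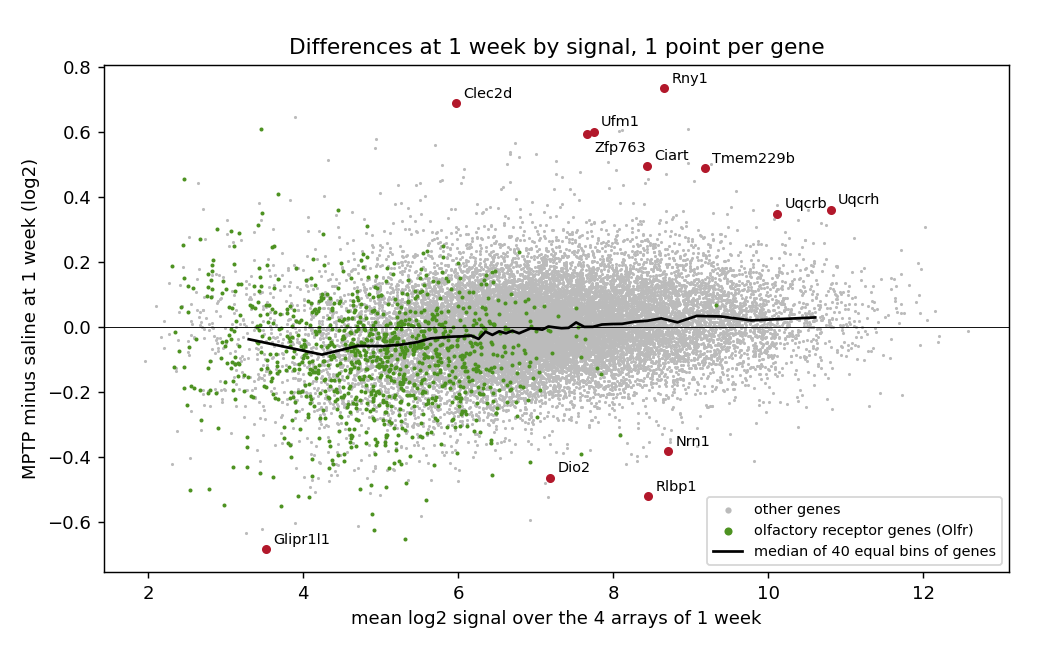
Each point is 1 gene, with its mean log2 signal over the 4 arrays of 1 week on the horizontal axis and the MPTP mean minus the saline mean (log2) on the vertical axis. The black line joins medians of 40 equal bins of genes and lies below 0 for dim genes and slightly above 0 for bright genes. Green points are olfactory receptor genes, and red points mark genes named in the text.

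Among genes above the median signal, called brighter genes here, Tmem229b had the smallest p. It encodes a transmembrane protein. It measured 9.42 and 9.43 in the MPTP arrays, against 8.90 and 8.97 in the saline arrays. Both MPTP arrays lay above both saline arrays with a gap of 0.44, and the difference was 0.49 ± 0.09 (SE of the limma fit, unadjusted p = 0.000267). These values come from the brighter of 2 probe sets. The other differed by 0.10, and the mean of both by 0.29. Probe set numbers run by chromosome, and by that order only the dimmer probe set lies on the gene's own chromosome. Ufm1, a small ubiquitin-like protein that is attached to other proteins at the endoplasmic reticulum, measured 8.03 and 8.08 in the MPTP arrays, against 7.37 and 7.53 in the saline arrays. The difference of 0.60 ± 0.13 is a 1.52-fold higher signal, and the like pairs gave 0.49 (MPTP array 1 minus saline array 2) and 0.71 (MPTP array 2 minus saline array 1). That holds for the brighter of 2 probe sets. The dimmer probe set of Ufm1 measured 7.18 and 7.03 in the MPTP arrays, against 7.17 and 7.42 in the saline arrays, so its groups overlapped with a difference of -0.19, and the mean of both probe sets differed by 0.21, below 1.5-fold. The zinc finger gene Zfp763 measured 7.88 and 8.04 in the MPTP arrays, against 7.28 and 7.45 in the saline arrays, a difference of 0.59 ± 0.12. In the probe sets kept for these 3 genes the arrays of a group lay closer to each other than to the other group. The rule took only genes without overlap at an unadjusted p under 0.05, which favours such values.

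Spry3, of the Sprouty family of inhibitors of growth factor receptor signalling, measured 8.86 and 8.97 in the MPTP arrays, against 8.38 and 8.51 in the saline arrays, a difference of 0.47 ± 0.10. Eola1 measured 7.44 and 7.57 in the MPTP arrays, against 7.07 and 7.00 in the saline arrays and differed by 0.47 ± 0.10. Hacd2, a dehydratase in the elongation of very long chain fatty acids, measured 8.70 and 8.57 in the MPTP arrays, against 8.07 and 8.32 in the saline arrays, a difference of 0.44 ± 0.10. These 3 genes had no overlap because the rule required it, and like pairs of the same sign follow from that. Eola1 and Hacd2 each had a dimmer probe set as well, which differed by -0.03 and 0.13, and the means of both probe sets differed by 0.22 and 0.29. By the order of probe set numbers the kept probe set of Eola1 lies on the gene's chromosome and that of Hacd2 does not. Gdap10 measured 9.36 and 9.16 in the MPTP arrays, against 8.70 and 8.92 in the saline arrays, a difference of 0.45 ± 0.13, and Mrpl42, a protein of the mitochondrial ribosome, 7.77 and 7.53 in the MPTP arrays, against 7.06 and 7.39 in the saline arrays, a difference of 0.42 ± 0.13. Snora75, a small nucleolar RNA that guides pseudouridine formation in other RNAs, stood at 7.73 and 7.42 with MPTP and 6.98 and 7.24 with saline. In these 3 the lower MPTP array was 0.24, 0.14 and 0.17 above the higher saline array.

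The remaining 3 of the 12 highest brighter genes are a Y RNA, a lens gene and a clock gene. Rny1, a Y RNA that binds the Ro60 protein, measured 8.50 and 9.55 in the MPTP arrays, against 8.20 and 8.38 in the saline arrays, and the like pairs gave 0.12 (MPTP array 1 minus saline array 2) and 1.35 (MPTP array 2 minus saline array 1). MPTP array 2 alone stood far from the rest. Crybb3, a lens crystallin, measured 7.21 and 7.70 in the MPTP arrays, against 7.07 and 6.98 in the saline arrays, with its high value in the array that had the highest lens signal. Ciart is described with the clock genes.

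**Figure D2:**
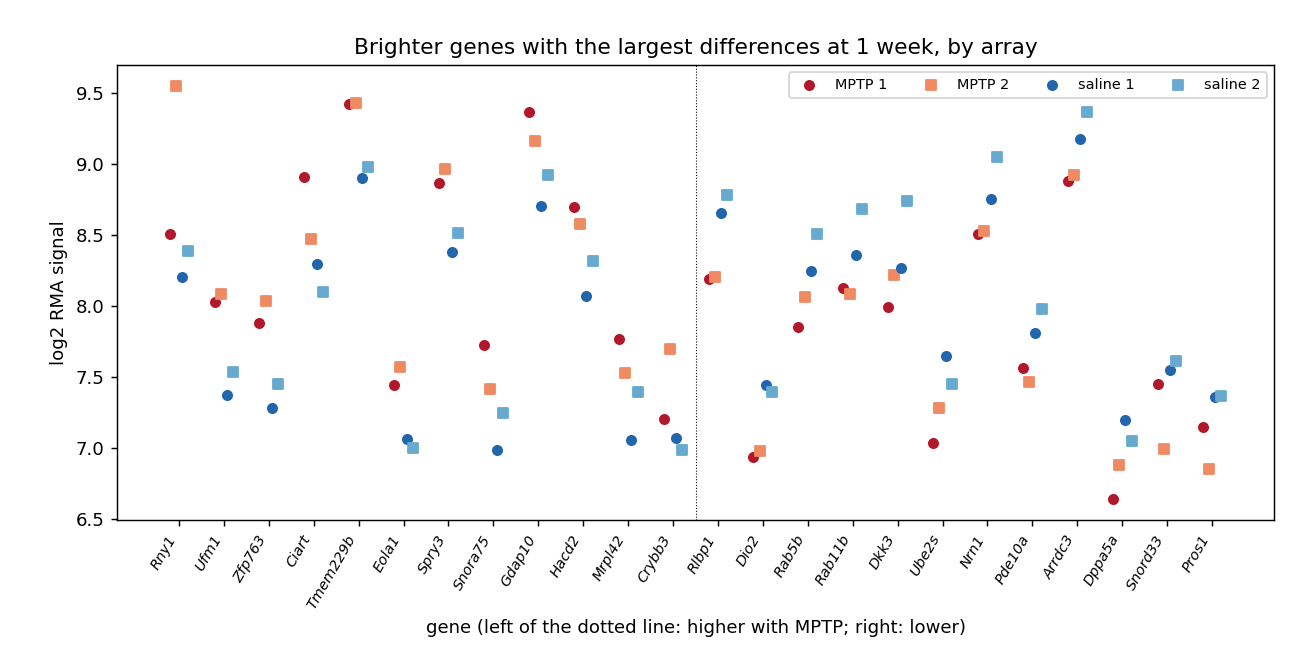
The log2 RMA signal of the 24 brighter genes with the largest differences is shown for each array, circles for array 1 and squares for array 2, red for MPTP and blue for saline. Each gene is shown by its brightest probe set. Genes were taken because the groups did not overlap, and the gap between groups is wide for Tmem229b, Ufm1, Rlbp1 and Dio2 and narrow for Dkk3 and Snord33, while Rny1 is high in MPTP array 2 alone.

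The lowest brighter gene with MPTP was Rlbp1, whose product CRALBP binds retinaldehyde in Mueller glia and pigment epithelium. It measured 8.19 and 8.20 in the MPTP arrays, against 8.65 and 8.78 in the saline arrays, a difference of -0.52 ± 0.11 (limma, unadjusted p = 0.000732), or 0.697 times the saline level. The like pairs gave -0.59 (MPTP array 1 minus saline array 2) and -0.45 (MPTP array 2 minus saline array 1), and the 2 MPTP arrays were nearly equal. Dio2, the deiodinase that converts thyroxine to the active thyroid hormone, measured 6.94 and 6.98 in the MPTP arrays, against 7.45 and 7.40 in the saline arrays, a difference of -0.46 ± 0.14. Here too both MPTP arrays lay close together below both saline arrays.

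Rab GTPases direct vesicle traffic, and 2 of them, by their brightest probe sets, were among the 12 lowest brighter genes. Rab5b, of early endosomes, measured 7.85 and 8.06 in the MPTP arrays, against 8.25 and 8.51 in the saline arrays, a difference of -0.42 ± 0.11. Rab11b, of recycling endosomes, measured 8.13 and 8.09 in the MPTP arrays, against 8.35 and 8.68 in the saline arrays, a difference of -0.41 ± 0.11. In both genes saline array 2 was the highest array. The second probe set of Rab5b differed by -0.44. That of Rab11b stood on the other side of 0 and measured 7.28 and 7.30 in the MPTP arrays, against 7.04 and 6.99 in the saline arrays, a difference of 0.27, and the mean of both Rab11b probe sets differed by -0.07. By the order of probe set numbers only this second Rab11b probe set lies on the gene's chromosome. Of all 70 Rab genes measured, a family taken up after these values were seen, 44 were below 0 with a median of -0.02, 4 were lower and 0 higher at an unadjusted p under 0.05, against 2.36% of all genes lower and 1.87% higher.

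Pde10a, a phosphodiesterase that breaks down cAMP and cGMP, measured 7.56 and 7.47 in the MPTP arrays, against 7.81 and 7.98 in the saline arrays, a difference of -0.38 ± 0.12. Arrdc3, an arrestin-related adaptor of receptor trafficking, measured 8.88 and 8.92 in the MPTP arrays, against 9.17 and 9.36 in the saline arrays, a difference of -0.37 ± 0.13. Ube2s, a ubiquitin-conjugating enzyme that works with the anaphase-promoting complex, measured 7.04 and 7.28 in the MPTP arrays, against 7.64 and 7.45 in the saline arrays, a difference of -0.39 ± 0.12. The nearest MPTP and saline arrays were 0.25 apart for Pde10a, 0.25 for Arrdc3 and 0.17 for Ube2s. Pros1, which encodes protein S, an anticoagulant and a ligand of the Mertk receptor used in phagocytosis of outer segments, measured 7.15 and 6.86 in the MPTP arrays, against 7.36 and 7.36 in the saline arrays, a difference of -0.36 ± 0.12. The small nucleolar RNA Snord33 stood at -0.36 ± 0.13 and Dppa5a, a gene best known from pluripotent cells, at -0.36 ± 0.16, with gaps between the groups of 0.10 and 0.16.

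In all 13 genes combined a 1.5-fold difference, no overlap and an unadjusted p under 0.05 (0.0652% of genes), and 5 of them carry names of classes passed over here. Of the other 8, Rny1, Ufm1 and Zfp763 are given above and the remaining 5 are dim. Clec2d, a lectin-like ligand of a natural killer cell receptor, measured 6.59 and 6.05 in the MPTP arrays, against 5.69 and 5.58 in the saline arrays, at percentile 18.7 of signal. Its like pairs differed in size, 1.01 (MPTP array 1 minus saline array 2) and 0.36 (MPTP array 2 minus saline array 1). Glipr1l1, which has the smallest p of all genes, measured 3.14 and 3.22 in the MPTP arrays, against 3.86 and 3.86 in the saline arrays at percentile 1.54. Cyp2c67, of a cytochrome P450 family known from the liver, measured 2.94 and 2.96 in the MPTP arrays, against 3.61 and 3.56 in the saline arrays, and the T cell receptor segment Trav7d-4 measured 3.29 and 3.04 in the MPTP arrays, against 3.86 and 3.71 in the saline arrays. Samt2b measured 3.59 and 3.60 in the MPTP arrays, against 4.54 and 3.85 in the saline arrays. These 4 lower genes lay at the dim end, between percentiles 1.27 (Cyp2c67) and 2.42 (Samt2b).

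The genes of dopamine metabolism, the direct context of MPTP, differed little between the groups. Th, tyrosine hydroxylase, which sets the rate of dopamine synthesis, measured 6.76 and 6.74 in the MPTP arrays, against 6.95 and 6.87 in the saline arrays, a difference of -0.16 ± 0.09 (limma, unadjusted p = 0.108), with both MPTP arrays below both saline arrays. Maoa, a monoamine oxidase that degrades dopamine, measured 7.16 and 7.23 in the MPTP arrays, against 7.42 and 7.41 in the saline arrays, a difference of -0.22 ± 0.09 with an unadjusted p of 0.0303. Maob, the oxidase that converts MPTP, measured 5.62 and 5.54 in the MPTP arrays, against 5.75 and 5.70 in the saline arrays. Its difference was -0.15 ± 0.09, without overlap, at percentile 16.1 of signal. The transporter Slc6a3, through which MPP+ enters, measured 6.28 and 6.65 in the MPTP arrays, against 6.72 and 6.38 in the saline arrays, and its groups overlapped. Slc18a2, the vesicular monoamine transporter, measured 6.58 and 6.59 in the MPTP arrays, against 6.59 and 6.71 in the saline arrays and Ddc, the decarboxylase that forms dopamine, 5.77 and 5.86 in the MPTP arrays, against 5.90 and 5.82 in the saline arrays, with overlap in both. The sign of Slc6a3 and of Slc18a2 turned when 1 array was left out, as given in the closing section. Of the 16 measured genes of the list, which holds synthesis, storage, uptake, breakdown and receptors, 11 were below 0 with a median of -0.05, and 1 of 16 was lower at an unadjusted p under 0.05 against 2.36% of all genes. Th, Slc6a3, Slc18a2 and Ddc all had signal below the median of all genes, and a difference near 0 in dim genes does not show a lack of response. Of 13 Parkinson disease genes, 8 were above 0 and the median was 0.01 (-0.02 after quantile normalization). The smallest p in that list belonged to Uchl1, a neuronal deubiquitinase (7.40 and 7.30 with MPTP and 7.09 and 7.17 with saline), and the second to Pink1, a kinase of mitochondrial quality control (7.78 and 7.85 with MPTP and 7.96 and 8.04 with saline), with no overlap in either.

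The respiratory chain, which MPP+ blocks at complex I, had slightly higher signal in its nuclear-encoded subunits. Of the complex I subunits 27 of 35 were above 0 with a median of 0.08, and of the subunits of complexes II to V 26 of 37 with a median of 0.07. The medians within the like pairs were 0.08 between the arrays that stand apart and 0.09 between the other arrays for complex I. For complexes II to V they were 0.08 between the arrays that stand apart and 0.08 between the other arrays. At an unadjusted p under 0.05, 1 subunit of complex I and 6 of complexes II to V were higher and none lower, against 1.87% of all genes higher. All of these subunits were brighter than the median gene, and the brightest 10% of genes itself had a median of 0.03. Over all 14 alternative settings the median of complex I was 0.06 to 0.11 and that of complexes II to V 0.03 to 0.10, with 0.06 and 0.04 after quantile normalization.

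Ndufb5, an accessory subunit of complex I, measured 8.39 and 8.54 in the MPTP arrays, against 8.08 and 8.18 in the saline arrays, a difference of 0.34 ± 0.10. Ndufc1, another accessory subunit, differed by 0.20 ± 0.10 in the brighter of 2 probe sets. The other differed by 0.10, with overlap between the groups. In complex III, Uqcrb measured 10.31 and 10.27 in the MPTP arrays, against 9.97 and 9.92 in the saline arrays and Uqcrh, which binds the cytochrome c1 subunit, 10.97 and 11.01 in the MPTP arrays, against 10.74 and 10.52 in the saline arrays. Their differences were 0.35 ± 0.09 and 0.36 ± 0.10, and the lowest MPTP value lay above the highest saline value by more than the gap between the MPTP arrays. Cox5a, a subunit of cytochrome c oxidase, measured 9.05 and 8.91 in the MPTP arrays, against 8.71 and 8.74 in the saline arrays, and Atp5h, of the stalk of ATP synthase, 10.05 and 10.15 in the MPTP arrays, against 9.89 and 9.80 in the saline arrays, both without overlap. Cycs, cytochrome c itself, the electron carrier that also starts the caspase cascade when released, measured 10.33 and 10.35 in the MPTP arrays, against 10.03 and 10.15 in the saline arrays, a difference of 0.25 ± 0.09, with 0.13 for the mean of its 3 probe sets. The dimmest of them, which by its number lies on the chromosome of Cycs, overlapped and differed by -0.11. By contrast the matrix enzymes of the tricarboxylic acid cycle had a median of -0.01 with 8 of 18 above 0. Glud1, the glutamate dehydrogenase that feeds the cycle, measured 8.56 and 8.56 in the MPTP arrays, against 8.86 and 8.97 in the saline arrays, a difference of -0.35 ± 0.09, the lowest of that list.

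Genes of translation and protein breakdown had medians above 0 as well, under each of the 14 alternative settings. Of the cytoplasmic ribosomal proteins 32 of 40 were above 0 with a median of 0.10 (0.06 to 0.12 over the settings), and 23 of the 40 had both MPTP arrays above both saline arrays, against 12.5% of all genes. Brighter than the median gene were 38 of these 40 and all 31 proteasome subunits. Among all 9969 genes above the median signal, 1693 had both MPTP arrays above both saline arrays. The brightest 10% of genes had a median of 0.03. Rpl24 measured 10.29 and 10.20 in the MPTP arrays, against 9.94 and 9.89 in the saline arrays and Rpl19 9.33 and 9.27 in the MPTP arrays, against 9.01 and 9.04 in the saline arrays, the differences being 0.33 ± 0.10 and 0.27 ± 0.08. Rps25 differed by 0.26 ± 0.09 and Rpl7 by 0.27 ± 0.09, and none was lower at an unadjusted p under 0.05. Of the mitochondrial ribosomal proteins 42 of 64 were above 0 with a median of 0.05 (0.03 to 0.07). Among them 6 were higher at an unadjusted p under 0.05 and none lower, against 1.87% of all genes higher. Beside Mrpl42, Mrpl11 measured 9.15 and 9.15 in the MPTP arrays, against 8.94 and 8.83 in the saline arrays and Mrps21 8.78 and 8.84 in the MPTP arrays, against 8.49 and 8.54 in the saline arrays, again without overlap, and Mrpl32 differed by 0.28 ± 0.09. Of the proteasome subunits 25 of 31 were above 0 with a median of 0.11 (0.05 to 0.12), and within the like pairs the medians were 0.13 between the arrays that stand apart and 0.05 between the other arrays. Psmb1, a subunit of the catalytic core, measured 8.90 and 8.84 in the MPTP arrays, against 8.71 and 8.56 in the saline arrays, and Psmc1, an ATPase of the regulatory cap, 8.59 and 8.71 in the MPTP arrays, against 8.49 and 8.37 in the saline arrays. Psmb3, also of the core, differed by 0.17 ± 0.09. The values of these lists are set beside those of the other lists in the plot of list medians.

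**Figure D3:**
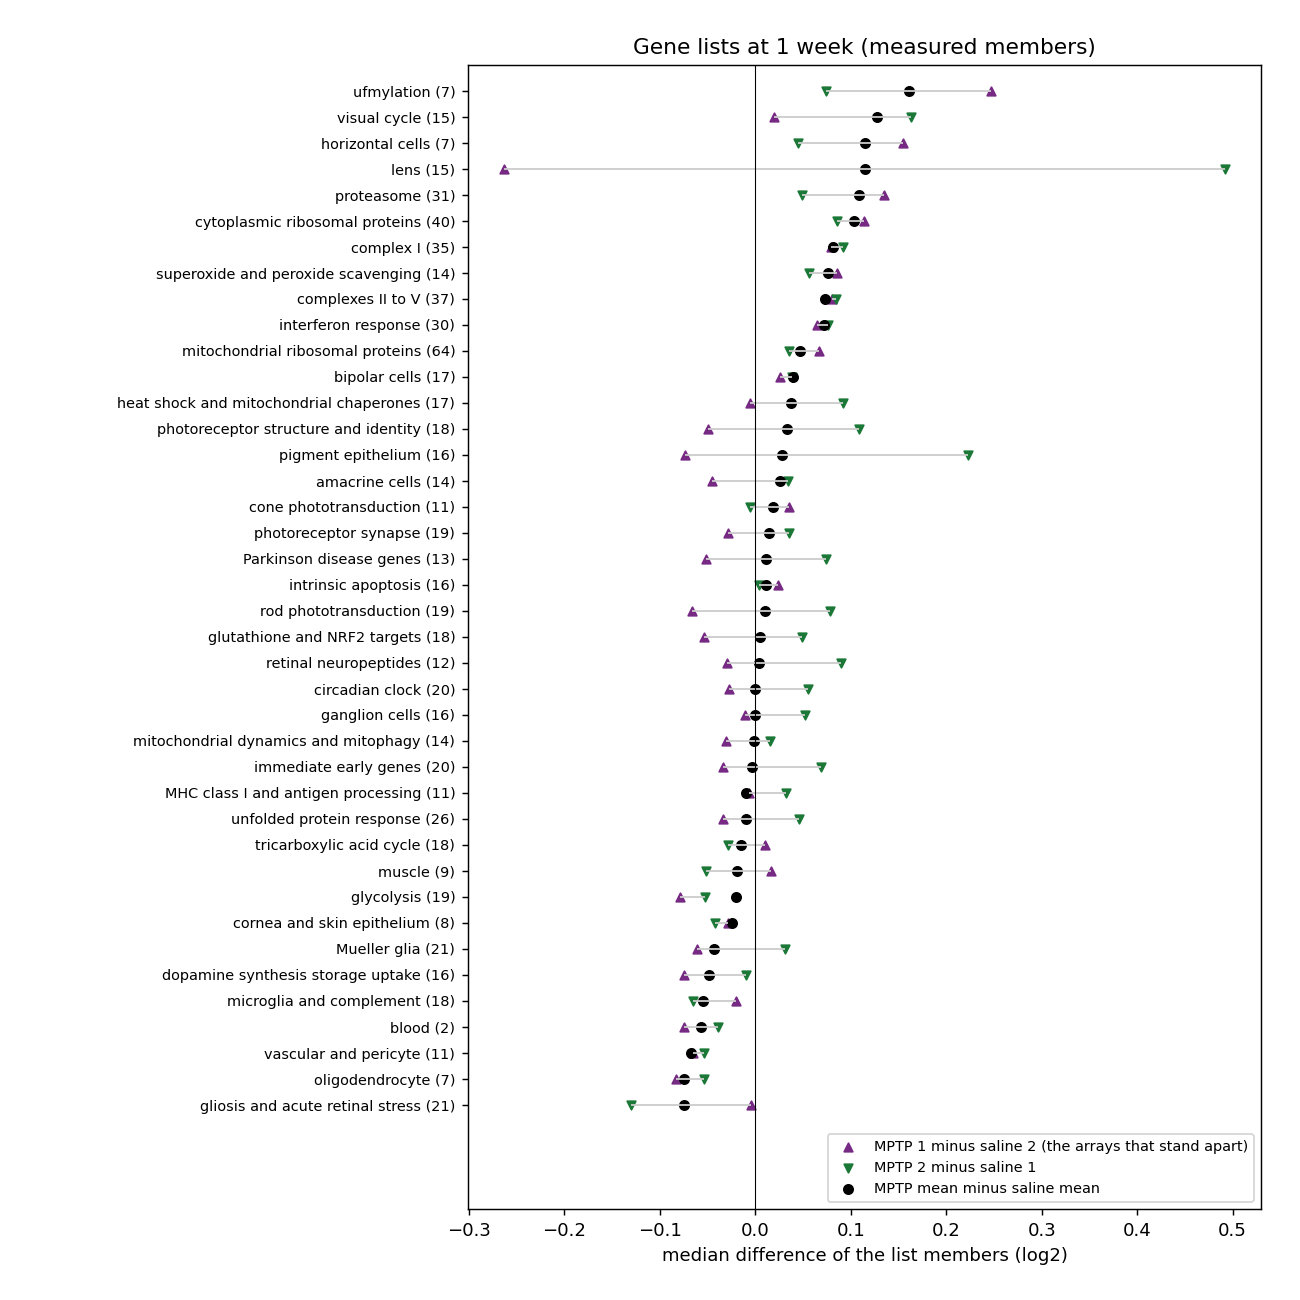
For each gene list, with the number of measured members in brackets, the black circle is the median over its members of the MPTP mean minus the saline mean (log2), the purple triangle the median for the 2 arrays that stand apart and the green triangle the median for the other 2 arrays. Complex I, complexes II to V and interferon response genes have nearly the same median in both pairs, while the lens genes lie at -0.26 in 1 pair and at 0.49 in the other.

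Ufmylation is the attachment of Ufm1 to target proteins by an E1, E2 and E3 enzyme, a pathway that acts on ribosomes stalled at the endoplasmic reticulum. Of its 7 measured genes 6 were above 0, with the highest median of all 40 lists, 0.16 (0.07 to 0.22 over the settings). At an unadjusted p under 0.05, 3 of 7 were higher, against 1.87% of all genes. The lists were chosen with earlier results of these data known, and Ufm1 itself is 1 of the 3. The rank and the count are therefore a description only. Ufm1 had the largest difference in its brighter probe set, while with the mean of its probe sets it stood below Ufc1 and Ddrgk1, at 0.21, against 0.32 and 0.29. Ufc1, the E2 enzyme, measured 8.45 and 8.51 in the MPTP arrays, against 8.19 and 8.14 in the saline arrays, a difference of 0.32 ± 0.11. Ddrgk1, a membrane anchor of the E3 complex, measured 8.99 and 8.88 in the MPTP arrays, against 8.61 and 8.69 in the saline arrays, a difference of 0.29 ± 0.09. Ufsp2, the protease that removes Ufm1, measured 9.70 and 9.57 in the MPTP arrays, against 9.50 and 9.45 in the saline arrays. In all 4 genes the groups were separate (for Ufm1 in the brighter probe set), and the list median was 0.25 between the arrays that stand apart and 0.07 between the other arrays. The wider unfolded protein response had a median of -0.0097 with 11 of 26 above 0. Creld2 and Dnajb9, chaperone-related proteins of the endoplasmic reticulum, were higher at an unadjusted p under 0.05, at 0.25 ± 0.08 and 0.25 ± 0.11, 2 of 26 in all against 1.87% of all genes.

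Enzymes that remove superoxide and peroxide had a median of 0.08 with 9 of 14 above 0. Prdx4, the peroxiredoxin of the endoplasmic reticulum, measured 6.89 and 6.70 in the MPTP arrays, against 6.49 and 6.25 in the saline arrays, a difference of 0.43 ± 0.13 at percentile 35.1 of signal. Prdx1, a cytosolic peroxiredoxin, measured 8.90 and 9.08 in the MPTP arrays, against 8.74 and 8.68 in the saline arrays, and the 2 arrays of each group lay apart from the other group. Prdx2 measured 10.78 and 10.92 with MPTP and 10.69 and 10.49 with saline, and Gpx1, a glutathione peroxidase, 7.91 and 8.01 with MPTP and 7.71 and 7.78 with saline. Of the glutathione and NRF2 target genes 10 of 18 were above 0 with a median of 0.0048. Gstp1, a glutathione transferase, stood at 0.31 ± 0.12 and Gclc, the catalytic subunit of glutathione synthesis, on the other side of 0 at -0.26 ± 0.10. Heat shock and mitochondrial chaperones had a median of 0.04, and none of 17 reached an unadjusted p under 0.05. Hspe1, the mitochondrial co-chaperonin, had the smallest p of these and measured 10.50 and 10.64 in the MPTP arrays, against 10.41 and 10.37 in the saline arrays. In the list of intrinsic apoptosis, with a median of 0.01, Cycs and Diablo, an antagonist of caspase inhibitors (7.47 and 7.33 with MPTP and 6.96 and 7.30 with saline), were the 2 of 16 that were higher at an unadjusted p under 0.05 and none was lower, against 1.87% of all genes higher and 2.36% lower.

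Glycolysis, an energy source of photoreceptors, had a median of -0.02 with 9 of 19 above 0. Eno2, the neuronal enolase, measured 8.61 and 8.58 in the MPTP arrays, against 8.75 and 9.07 in the saline arrays, and Ldha, the lactate dehydrogenase subunit abundant in photoreceptors, 11.19 and 11.17 in the MPTP arrays, against 11.37 and 11.48 in the saline arrays. The differences were -0.32 ± 0.11 and -0.24 ± 0.09. Hk1, a hexokinase that starts the pathway, measured 10.78 and 11.04 in the MPTP arrays, against 10.53 and 10.66 in the saline arrays. All 3 had no overlap, 2 lower and 1 higher with MPTP. The dimmer probe set of Hk1 overlapped and differed by -0.04, with 0.13 for the mean of both. By the order of probe set numbers only the dimmer one lies on the chromosome of Hk1.

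Interferon response genes are induced in cells that sense interferon, many of them through the interferon-stimulated response element in their promoters, and act against viruses. Of the 30 measured genes 19 were above 0 with a median of 0.07. That median was 0.05 to 0.29 over the settings, and 0.05 to 0.12 with 1 array left out. The settings include a fit of only the genes above the median signal, which leaves 10 of the 30. Both MPTP arrays lay above both saline arrays in 12 of 30, against 12.5% of all genes, with 1 the other way. Only 10 of the 30 were above the median signal of all genes. The genes Rtp4 and Ifi203, given next, stood at percentiles 37.4 and 19.2. Of the 30, 3 were higher at an unadjusted p under 0.05 and none lower, against 1.87% of all genes higher. Rtp4, a chaperone of receptors that interferon induces, measured 7.08 and 6.96 in the MPTP arrays, against 6.48 and 6.42 in the saline arrays, a difference of 0.57 ± 0.10 (limma, unadjusted p = 0.000234). Ifi203, of a cluster of similar DNA sensor genes that a probe set may not fully separate, measured 6.50 and 6.08 in the MPTP arrays, against 5.79 and 5.86 in the saline arrays, a difference of 0.46 ± 0.15. Xaf1, an antagonist of the inhibitor of apoptosis XIAP, measured 7.62 and 7.45 in the MPTP arrays, against 6.92 and 7.39 in the saline arrays, and Ifit1, which binds foreign RNA, 7.57 and 7.46 in the MPTP arrays, against 6.82 and 7.20 in the saline arrays. In Xaf1 and Ifit1 saline array 1 was the low array and saline array 2 lay nearer to the MPTP arrays. Saline array 1 was the lowest of the 4 arrays for 12 of the 30 genes, and the list averaged 6.82 and 6.84 in the MPTP arrays, against 6.68 and 6.71 in the saline arrays. The median was 0.06 between the arrays that stand apart and 0.08 between the other arrays. Antigen processing by MHC class I, which interferon also induces, had a median of -0.0096 with 5 of 11 above 0. B2m, the light chain of MHC class I, measured 10.06 and 10.18 in the MPTP arrays, against 10.46 and 10.25 in the saline arrays, and Psmb9, an interferon-induced subunit of the immunoproteasome, 7.82 and 7.98 in the MPTP arrays, against 7.85 and 7.72 in the saline arrays.

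The core of the interferon-stimulated response element, searched as GAAA, any 2 bases and GAAA again on both strands with overlapping matches allowed, occurred in 15 of the 26 RefSeq promoter windows of these genes (57.7%; 22 of the 30 genes had a window), and in 3.44% of all 32851 windows of 300 bases. The stretches of Ifit1 and Ifi203 are shown because they are the interferon genes named above that have a match. They end 41 and 1 bases before the annotated start. The capitals mark the matches (GRCm38.p6, gene strand, 5′ to 3′), in Ifit1 at chr19:34640749-34640848 on the plus strand and in Ifi203 at chr1:173942493-173942592 on the minus strand. A match is a description of the sequence and not evidence of binding.
Ifit1: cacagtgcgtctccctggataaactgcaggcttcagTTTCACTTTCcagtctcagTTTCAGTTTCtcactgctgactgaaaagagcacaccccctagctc
Ifi203: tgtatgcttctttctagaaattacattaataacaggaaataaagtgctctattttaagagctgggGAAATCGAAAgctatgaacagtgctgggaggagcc

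**Figure D4:**
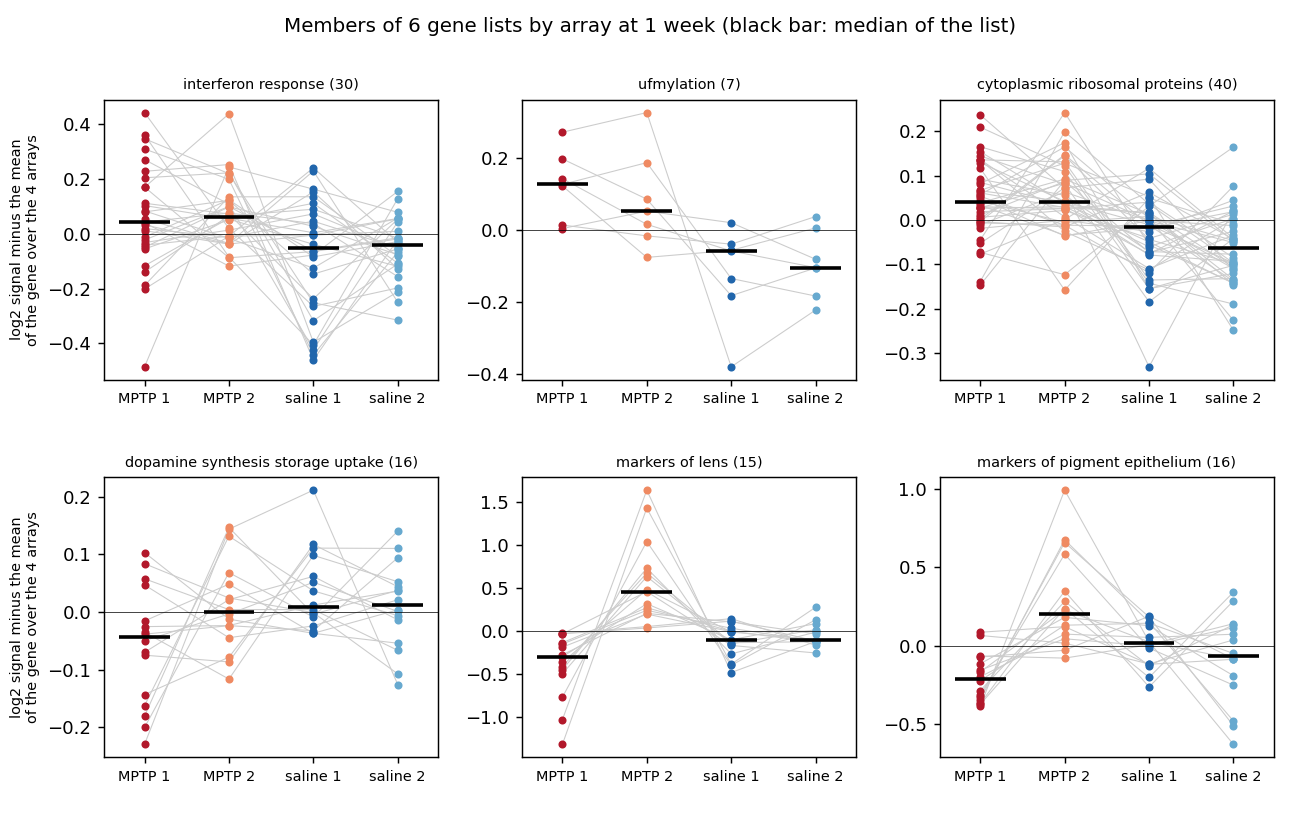
Each panel shows 1 gene list, with a point per gene and array at 1 week and grey lines joining the 4 values of a gene. The vertical axis is the log2 signal minus the mean of that gene over the 4 arrays, on a scale of its own in each panel, and black bars are list medians. Interferon, ufmylation and ribosomal protein genes have both MPTP bars above both saline bars, while lens and pigment epithelium genes are high in MPTP array 2 alone.

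The circadian clock of the retina runs on CLOCK and BMAL1, which bind E-boxes in clock genes, and dopamine is both an output of it and an input to it. Of 20 clock genes the median was -0.00053, with 10 of 20 above 0. Ciart, a repressor within the clock, measured 8.91 and 8.47 in the MPTP arrays, against 8.29 and 8.10 in the saline arrays, a difference of 0.50 ± 0.16, with like pairs of 0.81 (MPTP array 1 minus saline array 2) and 0.18 (MPTP array 2 minus saline array 1). The dimmer probe set of Ciart measured 8.29 and 7.72 in the MPTP arrays, against 7.79 and 8.08 in the saline arrays, with overlap. It differed by 0.07, and the mean of both by 0.28. By the order of probe set numbers only the dimmer one lies on the chromosome of Ciart, so the larger difference may not belong to this gene. Nr1d1, a nuclear receptor that represses Bmal1, measured 10.30 and 10.20 in the MPTP arrays, against 9.96 and 10.11 in the saline arrays, a difference of 0.21 ± 0.09. The time of day at which retinas were taken is not given in the labels, and its part in these values was not tested. The E-box CACGTG, which reads the same on both strands, was found in 6 of 26 promoter windows of the clock genes and in 7.15% of all windows. The Ciart promoter is printed because it holds 3 of them in a stretch from 127 to 28 bases before the start (chr3:95882256-95882355, minus strand, GRCm38.p6, E-boxes in capitals).
Ciart: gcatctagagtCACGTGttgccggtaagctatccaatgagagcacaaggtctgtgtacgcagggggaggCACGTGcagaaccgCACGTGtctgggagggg
Immediate early genes, which neurons induce within minutes of activity, had a median of -0.004 with 10 of 20 above 0. Btg2, an antiproliferative member, measured 8.88 and 8.94 in the MPTP arrays, against 8.70 and 8.67 in the saline arrays and was the only gene of 20 at an unadjusted p under 0.05, against 4.22% of all genes, while Fos measured 6.83 and 6.94 in the MPTP arrays, against 6.79 and 6.44 in the saline arrays.

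Photoreceptors make up most retinal cells, and their genes were divided between higher and lower. The rod phototransduction genes had a median of 0.0098 with 10 of 19 above 0, and the cone genes of 0.02 with 8 of 11 above 0. After quantile normalization these medians were -0.03 and -0.0066. Gngt1, the gamma subunit of rod transducin, measured 11.84 and 11.82 in the MPTP arrays, against 11.54 and 11.65 in the saline arrays, a difference of 0.24 ± 0.09. Gnb3, the beta subunit of cone transducin that ON bipolar cells also use, measured 9.46 and 9.22 in the MPTP arrays, against 9.70 and 9.64 in the saline arrays, a difference of -0.33 ± 0.19. Of the 2 outer segment rim proteins, Rom1 measured 11.27 and 11.22 in the MPTP arrays, against 10.96 and 10.99 in the saline arrays and Prph2 11.32 and 11.35 in the MPTP arrays, against 11.48 and 11.59 in the saline arrays, so that partners of the same complex stood on opposite sides, at 0.27 ± 0.08 and -0.20 ± 0.09. Both were among the brightest genes of the array, at percentiles 99.7 and 99.8. The list of photoreceptor structure and identity had a median of 0.03, with Tulp1, a protein of transport to the outer segment, at 0.22 ± 0.10 and Aipl1, a chaperone of the phosphodiesterase, at -0.17 ± 0.09. Cabp4, a calcium sensor of the photoreceptor ribbon synapse, measured 9.09 and 8.78 in the MPTP arrays, against 9.35 and 9.14 in the saline arrays, in a synapse list whose median was 0.01. For rods the list median was -0.07 between the arrays that stand apart and 0.08 between the other arrays.

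Inner retinal neurons had single genes on either side. In bipolar cells, Scgn, a calcium-binding protein of cone bipolar cells, measured 9.01 and 8.87 in the MPTP arrays, against 8.54 and 8.65 in the saline arrays, a difference of 0.34 ± 0.10, and Gng13, a G protein subunit of ON bipolar cells, 8.78 and 8.88 in the MPTP arrays, against 8.65 and 8.58 in the saline arrays. Isl1, a transcription factor of bipolar, amacrine and ganglion cells, measured 9.53 and 9.36 in the MPTP arrays, against 9.65 and 9.68 in the saline arrays, a difference of -0.23 ± 0.09. Of the bipolar genes 10 of 17 were above 0, and the median was 0.04. In amacrine cells, the class that holds the dopamine neurons, Tfap2a, a transcription factor of these cells, measured 7.96 and 7.90 in the MPTP arrays, against 7.56 and 7.77 in the saline arrays, a difference of 0.27 ± 0.09, and the list had a median of 0.03. Ganglion cell genes had a median of -0.0008, and 3 of 16 were lower at an unadjusted p under 0.05 and none higher, against 2.36% of all genes lower. Nrn1, which encodes neuritin, a promoter of neurite growth, measured 8.50 and 8.53 in the MPTP arrays, against 8.75 and 9.05 in the saline arrays, a difference of -0.38 ± 0.11. Slc17a6, the vesicular glutamate transporter of ganglion cells, measured 8.59 and 8.89 in the MPTP arrays, against 8.97 and 9.06 in the saline arrays, and Opn4, melanopsin of the intrinsically photosensitive ganglion cells, 6.70 and 6.77 in the MPTP arrays, against 7.02 and 6.89 in the saline arrays. In each of the 3 both MPTP arrays were below both saline arrays. The 7 genes of horizontal cells had a median of 0.12 with 6 of 7 above 0 and none at an unadjusted p under 0.05. Onecut1, a transcription factor of these cells, measured 7.23 and 7.34 in the MPTP arrays, against 7.12 and 7.12 in the saline arrays, and Prox1, another one shared with other neurons and Mueller glia, 9.56 and 9.41 in the MPTP arrays, against 9.56 and 9.76 in the saline arrays.

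Mueller glia, which span the retina, buffer potassium and recycle glutamate and retinoids, had 3 of 21 genes lower and none higher at an unadjusted p under 0.05, against 2.36% of all genes lower. They were Rlbp1, Cd9 and Dkk3. Cd9, a tetraspanin, measured 8.03 and 7.97 in the MPTP arrays, against 8.37 and 8.35 in the saline arrays, a difference of -0.36 ± 0.13, with a gap of 0.32 between the groups. Dkk3, a secreted protein of the Dickkopf family, measured 7.99 and 8.22 in the MPTP arrays, against 8.27 and 8.74 in the saline arrays, a difference of -0.40 ± 0.15. MPTP array 1 and saline array 2 were its extremes, and the gap between the groups was 0.05. Kcnj10, the potassium channel of Mueller end feet, measured 7.59 and 7.65 in the MPTP arrays, against 7.77 and 7.83 in the saline arrays. The list as a whole was split, 10 of 21 above 0 with a median of -0.04, and its medians were -0.06 between the arrays that stand apart and 0.03 between the other arrays. In the visual cycle list, 11 of 15 genes were above 0 with a median of 0.13, while Rlbp1 and Rdh12, a photoreceptor retinol dehydrogenase (10.27 and 10.25 with MPTP and 10.55 and 10.40 with saline), were lower at an unadjusted p under 0.05, against 2.36% of all genes. Without MPTP array 2 the median of the list was -0.08. Rpe65, the isomerase of the pigment epithelium, measured 7.73 and 9.11 in the MPTP arrays, against 8.14 and 7.49 in the saline arrays, and Lrat, which makes its substrate, 6.72 and 7.62 in the MPTP arrays, against 7.02 and 6.79 in the saline arrays. MPTP array 2 was the high array for both, as for the pigment epithelium list, and Rlbp1 was low in that array. Without that array the differences were -0.08 for Rpe65, -0.18 for Lrat and -0.53 for Rlbp1. Part of the visual cycle list is made in the pigment epithelium, and how far the amount of that tissue moved the list was not tested.

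Genes of gliosis, microglia and complement had medians below 0. Gfap, the intermediate filament that reactive Mueller glia and astrocytes increase, measured 6.76 and 6.57 in the MPTP arrays, against 6.76 and 6.77 in the saline arrays, a difference of -0.10 ± 0.12. Of 21 genes of gliosis and acute retinal stress 15 were below 0 with a median of -0.08, and saline array 1 was the highest array for 11 of them. Lif, a cytokine that injured retina induces, measured 5.81 and 5.69 in the MPTP arrays, against 6.12 and 5.89 in the saline arrays and was the only member of 21 at an unadjusted p under 0.05, against 4.22% of all genes. Of 18 genes of microglia and complement 10 were below 0 with a median of -0.05 and none reached an unadjusted p under 0.05. Aif1, a marker of microglia, measured 5.66 and 5.84 in the MPTP arrays, against 5.91 and 5.35 in the saline arrays, with overlap. Tyrobp, an adaptor of microglial receptors, measured 6.81 and 6.56 in the MPTP arrays, against 7.12 and 6.79 in the saline arrays, and Ctss, a lysosomal protease, 8.31 and 8.14 in the MPTP arrays, against 8.86 and 8.39 in the saline arrays. Saline array 1 was the highest of the 4 arrays for 12 of the 18 genes, and without that array the median was 0.02, against -0.0092 for the gliosis list. Of the 18 genes, 3 were above the median signal of all genes.

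The contrast of MPTP against saline at 4 weeks comes from other arrays and was set against the early one. For the difference of the effects no gene passed an adjusted p of 0.05 (limma, smallest adjusted p = 0.147), and 391 genes (1.96%) had an unadjusted p under 0.05. Among them was Rtp4, which at 4 weeks measured 6.44 and 6.27 with MPTP, against 6.63 and 6.48 with saline, an effect of -0.20 ± 0.10 that differed from the early one with an unadjusted p of 0.000329 in limma. Rpl19 at 4 weeks measured 8.91 and 8.97 with MPTP, against 9.06 and 9.03 with saline, and Tfap2a 7.66 and 7.67 with MPTP, against 7.77 and 7.78 with saline, with unadjusted p-values for the difference of 0.00964 and 0.0179 in limma. All 3 were higher with MPTP at 1 week and lower at 4 weeks. Glipr1l1, a dim gene, had an effect of -0.68 ± 0.09 at 1 week and of 0.20 ± 0.09 at 4 weeks (unadjusted p = 2.84e-05 in limma). Rlbp1 measured 8.44 and 8.16 with MPTP, against 8.59 and 8.58 with saline at 4 weeks, Dio2 6.72 and 7.21 with MPTP, against 7.36 and 7.41 with saline and Uqcrh 10.84 and 10.78 with MPTP, against 10.57 and 10.41 with saline. Their effects had the same sign at both times and limma gave unadjusted p-values of 0.149, 0.841 and 0.772 for the difference, which does not show that they were equal.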

How the data were processed

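Log2 signal per probe set was deposited by the authors and, per the submitters' processing notes, came from RMA in Affymetrix Expression Console (no version stated). RNA (100 ng) was amplified and biotin-labelled with a SPIA kit, per the labels' protocols. Of 28944 probe sets, 21789 named exactly 1 gene, and 1621 that named several and 5534 without an entry were left out. The brightest probe set was kept for 999 genes with more than 1. The genomic position of the kept probe sets was not checked directly. Probe set numbers run by chromosome, and by that order some kept probe sets lie on another chromosome than the gene's. They include those of Tmem229b, Hacd2, Ciart, Rab11b, Ube2s, Hk1, Cycs, Rpl24, Rpl19, Rps25, Psmb3, Prdx2 and Hspe1. What these probe sets measure was not tested. Of the 19938 genes compared, 82 symbols had no RefSeq entry.

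Group means over the 8 arrays were fitted in R 4.3.3 with limma 3.58.1 (4 residual degrees of freedom, two-sided, Benjamini-Hochberg over all genes, threshold 0.05), after a test on simulated data. Each ± is the SE of that fit. The number of arrays limits the precision. Genes named were the 12 highest and 12 lowest brighter genes without overlap at an unadjusted p under 0.05, those past 1.5-fold, up to 4 members of each of 40 lists by smallest p, and 6 fixed genes (Th, Slc6a3, Slc18a2, Ddc, Gfap, Aif1). Predicted, clone and RIKEN names, chemosensory receptors and microRNAs were passed over among the first 2 kinds. Members and lists were chosen with earlier results of these data known. Same-numbered arrays deviated with a correlation of -0.38 at 1 week and 0.12 at 4 weeks, so array numbers were not used as pairs. Promoter windows of 300 bases came from RefSeq (GRCm38.p6). In all 14 alternatives were run. Plots used Python 3.11.15 and matplotlib 3.10.9.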

Additional observations from a re-analysis of the deposited data

How the results depend on the processing

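No gene passed the adjusted threshold under any of the 14 alternatives, for the effect at 1 week or for its difference from 4 weeks, where that could be fitted. The 842 genes at an unadjusted p under 0.05 became 477 in a fit of only the 4 arrays of 1 week, and 1016 to 1876 with 1 array left out, where the lone array of a group is assumed to vary like the others. Without both arrays that stand apart there were 1698. With the array number as a replicate block there were 591, although the numbers do not pair the arrays. With the block crossed (MPTP array 1 with saline array 2) there were 1627. The count of 13 genes past 1.5-fold was 3 among genes above the median signal, 26 to 92 with 1 array left out, and 138 without the arrays that stand apart. The cause of these shifts was not tested.

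Of 1574 recomputed values of 114 named genes, Maob not included, 13 turned sign, in 10 genes, and 0 newly passed the threshold. Without MPTP array 2, Rpe65 stood at -0.084, Lrat at -0.18, Crygs at -0.73, Crybb1 at -0.28, Cldn11 at -0.025 and Gfap at 0.00015. With 1 array left out in turn the ranges were -0.084 to 1.29 for Rpe65, -0.18 to 0.72 for Lrat, -0.73 to 1.94 for Crygs, -0.28 to 0.80 for Crybb1, -0.025 to 0.41 for Cldn11 and -0.20 to 0.00015 for Gfap. They were -0.27 to 0.10 for Slc6a3 (above 0 without MPTP array 1 and, at 0.083, without saline array 1), -0.12 to 0.0013 for Slc18a2, -0.16 to 0.40 for Aif1 and -0.056 to 0.97 for Penk. Without both arrays that stand apart Slc18a2 stood at 0.0087 and Aif1 at -0.068. Of 544 recomputed medians of 39 lists, 58 moved by more than the SD between arrays of a group and 65 turned sign. The list of blood genes had too few measured members for this.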

Other observations

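Vessels and myelin, not described above, had differences of MPTP minus saline below 0 in most of their genes. Of the 11 genes of vessels and pericytes 9 were below 0, the median was -0.07 and none reached an unadjusted p under 0.05. Cdh5, the cadherin of endothelial junctions, measured 6.55 and 6.57 in the MPTP arrays, against 6.72 and 6.75 in the saline arrays, with no overlap. Of the 7 oligodendrocyte genes, 6 were below 0 with a median of -0.07, and all 7 were dimmer than the median gene. Cldn11, a claudin of myelin and of other epithelia, was the exception and measured 6.51 and 6.95 in the MPTP arrays, against 6.67 and 6.41 in the saline arrays. Without MPTP array 1 the medians of both lists were 0.01 and 0.00028.

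Neuropeptides of amacrine and ganglion cells were divided, 6 of 12 above 0 with a median of 0.0038. Penk, the enkephalin precursor, differed by 0.46 ± 0.31. Saline array 1 was its low array at 7.71, and saline array 2, at 8.74, lay between the MPTP arrays. Cck, cholecystokinin, measured 7.26 and 7.38 in the MPTP arrays, against 7.21 and 7.06 in the saline arrays, and Vip, a peptide of a sparse amacrine class, 7.14 and 7.22 in the MPTP arrays, against 7.32 and 7.31 in the saline arrays, both without overlap and on opposite sides. Genes of mitochondrial dynamics and mitophagy had a median of -0.00092 with 7 of 14 above 0, and beside Pink1 the smallest p was that of Sqstm1, an autophagy receptor, at -0.07 ± 0.09. Among other tissues, muscle genes had a median of -0.02, with Myl1, a myosin light chain, at 6.53 and 6.33 in the MPTP arrays, against 5.87 and 6.24 in the saline arrays. Cornea and skin genes had a median of -0.02, with Krt15, a keratin of basal epithelium, at 6.21 and 6.50 in the MPTP arrays, against 6.84 and 6.42 in the saline arrays. Of the blood genes listed, 2 were measured, both below 0 with a median of -0.06, and the globins were not among them.

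Families of genes with dim signal, taken up by name after the data were seen, were mostly below 0. The share was 70.7% of 167 vomeronasal receptors and 64.9% of 302 microRNA genes. It was 80.0% of 40 beta-defensins and 79.5% of 44 keratin-associated proteins. Together with the olfactory receptors, vomeronasal receptors and microRNA genes made up 28.7% of the lower genes at an unadjusted p under 0.05 and 7.50% of all genes. In array medians the olfactory receptors stood at 4.97 and 5.01 with MPTP, against 5.21 and 5.02 with saline, so that saline array 1 was the high array. At 4 weeks their median difference was 0.03. The 51 small nucleolar RNAs measured were dim as well and stood on the other side, 33 above 0 with a median of 0.05. The 347 Zfp genes, brighter on the whole, had a median of 0.0075. The cause of these family values was not tested.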
